A study of Mus musculus with 18 samples.

Results

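The tachykinins are a family of small neuropeptides cut from larger precursors. *Tac1* encodes the precursor of substance P and neurokinin A, *Tac2* that of neurokinin B and *Tac4* that of hemokinin-1. Their receptors, NK1 (*Tacr1*), NK2 (*Tacr2*) and NK3 (*Tacr3*), are coupled to Gq proteins and raise intracellular calcium. In the dorsal part of the spinal grey matter, substance P is released by the endings of peptidergic sensory neurons and by local neurons, and NK1 marks projection neurons that carry pain signals to the brain. Neurokinin B and NK3 are found in local excitatory neurons of the superficial laminae. The messenger RNA that sensory neurons use to make substance P lies mostly in their cell bodies, in the ganglia outside the cord.

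These 6 genes were chosen by name, as the rows of the count table that carry the symbols *Tac1*, *Tac2*, *Tac4*, *Tacr1*, *Tacr2* and *Tacr3*, out of 55573 Ensembl genes. RNA-Seq was performed on the ipsilateral dorsal horn (DHSC, spinal segments L3 to L5) of C57BL/6J mice aged 8 to 12 weeks, taken 2 h after 2% formalin (8 µl per 20 g of body weight) had been injected into the left hind paw. The samples were 6 Male, 6 F1/proestrus and 6 F2/metestrus, where F1 females had a short and F2 females a long quiet interphase between both phases of the pain response, and proestrus and metestrus are stages of the estrus cycle. Response type and cycle stage coincide in these labels and cannot be told apart. All 18 samples came from mice injected with formalin, and no uninjected level was analysed here. The labels do not say whether a sample is a single animal. The tests took each sample as the unit of replication, so p-values set differences against the spread between these samples.

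Between 73590509 and 125724156 reads were counted on genes per sample, and levels are given in CPM, the counts scaled to a common library size after TMM normalization. The floor of detection was set at 3 counts, or 0.0240 to 0.0407 CPM, and covers counting error only. Markers of excitatory and inhibitory neurons were well detected. *Slc17a6*, the vesicular glutamate transporter of excitatory neurons, lay between 238 and 276 CPM. *Gad1*, which makes GABA, lay between 225 and 272 CPM. All 10 dorsal horn neuron markers examined had enough counts to be tested. They ran from *Pax2*, at 1.70 to 3.17 CPM, to *Slc6a5*, at 205 to 407 CPM, with *Lmx1b* at 8.51 to 13.9 CPM. Separate series of libraries can be told from the column names, whose numbers run from 27 to 35 for replicates 1 to 3 and from 188 to 196 for replicates 4 to 6, with 3 samples of every group in each series. One library stood apart. F1/proestrus 5 contained transcripts of sensory ganglion neurons, with 125 CPM of the sodium channel gene *Scn10a* against at most 0.153 CPM in the other 17 samples, and results that rest on it are given with and without it.

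The stretches of the precursor genes that code for the end of each peptide are shown because they are what makes these genes a family. They were read from the coding transcripts of GENCODE vM21 (GRCm38), 5′ to 3′, and all lie on the + strand. Capitals mark the 15 bases that code for the C-terminal motif shared by the tachykinins. The lower-case bases after them begin with the codon of the glycine that is turned into the C-terminal amide, followed by a pair of basic codons where the precursor is cut.
*Tac1*, substance P: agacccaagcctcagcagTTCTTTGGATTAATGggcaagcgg
*Tac1*, neurokinin A: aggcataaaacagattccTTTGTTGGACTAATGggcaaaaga
*Tac2*, neurokinin B: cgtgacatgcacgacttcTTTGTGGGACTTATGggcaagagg
*Tac4*, hemokinin-1: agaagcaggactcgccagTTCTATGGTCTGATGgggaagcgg
The marked bases differed at 2 of 15 positions between neurokinin A and neurokinin B and at 3 of 15 between the substance P and neurokinin A stretches of *Tac1* itself. They differed most between *Tac2* and *Tac4*, at 6 of 15. Over the whole 42 bases, substance P was closest to hemokinin-1, with 11 differences. The substance P stretch lies in exon 3 of *Tac1* (chr6:7556732-7556773) and the hemokinin-1 stretch in exon 2 of *Tac4* (chr11:95265260-95265301). The other two stretches are each split by an intron, between exons 5 and 6 of the *Tac1* transcript with 130 codons (chr6:7557743-7559139) and between exons 5 and 6 of *Tac2* in its transcript of 8 exons (chr10:127728476-127729154). The *Tac1* transcript with 112 codons codes for 1 tachykinin motif and lacks the neurokinin A stretch, whereas those with 115 and 130 codons hold 2. Counts were made per gene, so the *Tac1* values do not tell these transcripts apart.

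The genes are *Tac1* (ENSMUSG00000061762, chr6:7554879-7565834), *Tac2* (ENSMUSG00000025400, chr10:127724478-127731768), *Tac4* (ENSMUSG00000020872, chr11:95261529-95269265), *Tacr1* (ENSMUSG00000030043, chr6:82402334-82560104), *Tacr2* (ENSMUSG00000020081, chr10:62252438-62265990) and *Tacr3* (ENSMUSG00000028172, chr3:134829007-134934579). None of them overlaps another annotated gene, so reads of an antisense partner do not enter these counts. Their promoters, taken as the RefSeq windows of 250 bases before and 50 bases after the start site (GRCm38.p6), were searched on both strands for the sites of CREB (TGACGTCA) and AP-1 (TGANTCA) and for the palindromic estrogen response element. None of these was found in the promoters of the 6 genes. Over all 32851 promoters they were found in 1.79%, 7.81% and 0.0700%, in the same order, so absence from 6 promoters says little. The shorter CRE half-site TGACG, which lies within the CREB site and is found in 20.8% of 32851 promoters, was found at −197 and −43 in *Tac1*, at −226 in *Tacr1* and at −58 in *Tacr3*.

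The 2 main ligand genes were the most abundant members and *Tac4* was not detected beyond the floor. Levels of different genes are compared per kilobase of exon. *Tac2* had 40.9 CPM per kb on average over the 18 samples and *Tac1* 14.7 CPM per kb, which placed them at the 93.7th and the 82.5th percentile of the 24862 genes with enough counts to be tested. *Tacr3* (5.89 CPM per kb) and *Tacr1* (5.48 CPM per kb) followed, and *Tacr2* was at 0.187 CPM per kb. The order *Tac2*, *Tac1*, then both receptor genes *Tacr1* and *Tacr3*, then *Tacr2* held in all 18 samples. The neighbours *Tacr1* and *Tacr3* were not separated, since *Tacr1* per kb was the higher of the pair in 6 of 18 samples. Their order also turned when the length of the longest coding transcript was used, with 7.08 CPM per kb for *Tacr1* and 5.89 for *Tacr3*. Per kb of exon, *Tac2* exceeded *Tac1* in each sample, *Tac1* lying between 0.296 and 0.546 times the level of *Tac2*. The size of this gap depends on the length used. With the longest coding transcript, the means were 66.1 CPM per kb for *Tac2* and 40.5 for *Tac1*. In CPM without a length they were 56.4 and 49.9. *Tac1* then exceeded *Tac2* in F1/proestrus 5 (62.9 against 46.7 CPM) and Male 4 (55.8 against 53.5 CPM).

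**Figure D1:**
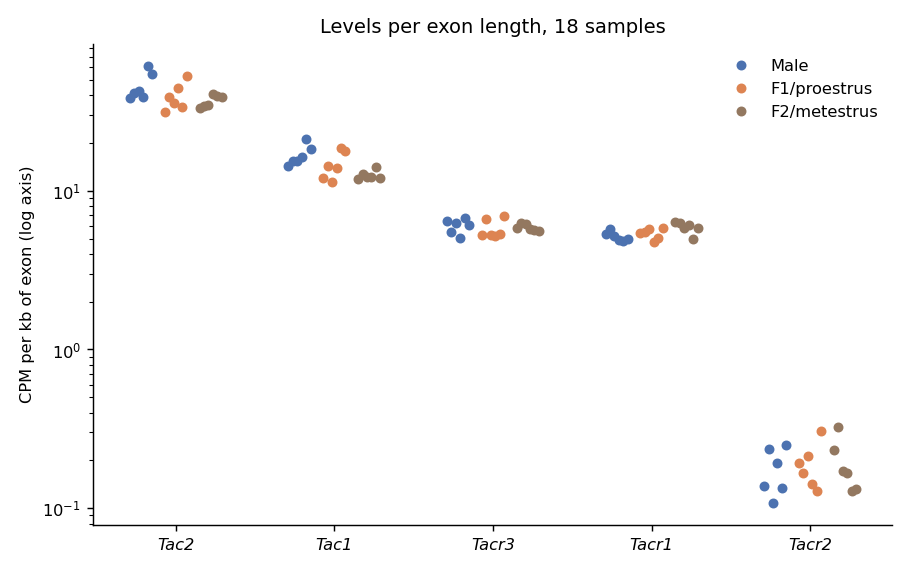
Level of 5 genes in each of the 18 samples, in CPM per kilobase of exon on a log axis, with Male, F1/proestrus and F2/metestrus samples side by side and *Tac4*, with at most 3 counts, left out. *Tac2* lies above *Tac1* in every sample, *Tacr3* and *Tacr1* overlap near 5.89 and 5.48 CPM per kb, and *Tacr2* lies far below them.

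Among the ligands, *Tac1* was highest in males. Its level was 48.9 CPM in the lowest male, 54.2 at the median and 71.7 in the highest male. In F1/proestrus females it was 38.5, 48.0 and 62.9 CPM, and in F2/metestrus females 40.3, 41.4 and 48.0 CPM, in the same order. Every male was above every F2/metestrus female, while the males overlapped the F1/proestrus females, in which samples 5 and 6 reached 62.9 and 60.2 CPM. The means were 57.3 ± 8.44 CPM (SD, n = 6) in males, 49.7 ± 9.93 (n = 6) in F1/proestrus and 42.5 ± 2.88 (n = 6) in F2/metestrus. The F2/metestrus samples were the most alike, with a coefficient of variation of 6.76% against 14.7% in males and a higher one in F1/proestrus.

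*Tac2* had a similar order of group means. Males had 52.9, 57.8 and 84.5 CPM (lowest, median, highest), F1/proestrus females 43.0, 51.6 and 73.1 CPM, and F2/metestrus females 46.1, 50.9 and 56.4 CPM. All 3 groups overlapped, and the high values came from Male 5, Male 6 and F1/proestrus 6, which were also among the 5 samples with the highest *Tac1*. The means were 63.5 ± 13.0, 54.6 ± 11.1 and 51.0 ± 4.42 CPM (SD, n = 6 each). *Tac4* had between 0 and 3 counts per sample and 12 counts in all 18 samples together, of which 7 fell in males, 0 in F1/proestrus and 5 in F2/metestrus. A count of 0 allows up to the floor of 0.0240 to 0.0407 CPM, so no fold change is given for *Tac4*. Of the B cell genes that mark one known source of hemokinin-1, *Cd79b* had 12 to 55 counts per sample, *Cd79a* at most 27 and *Ms4a1* at most 15.

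Among the receptors, *Tacr1* ran the other way. Males had 31.2, 32.9 and 37.2 CPM (lowest, median, highest), F1/proestrus females 30.8, 35.4 and 37.9 CPM, and F2/metestrus females 32.3, 38.7 and 41.5 CPM. The groups overlapped, although each of the 6 males lay below the median of the 12 females. The means were 33.4 ± 2.22, 34.9 ± 2.75 and 38.3 ± 3.27 CPM (SD, n = 6 each). *Tacr3* was level across the groups, with means of 22.7 ± 2.43 CPM in males, 21.7 ± 2.94 in F1/proestrus and 22.1 ± 1.06 in F2/metestrus and values from 19.0 to 26.0 CPM over all samples. *Tacr2*, a receptor known mostly from smooth muscle, had 23 to 76 counts per sample and means of 0.398 ± 0.133, 0.432 ± 0.145 and 0.434 ± 0.168 CPM. Its values ranged from 0.243 to 0.731 CPM, and the 3 groups overlapped. The 5 smooth muscle markers examined beside it were not called between sexes or female groups. Their log2 fold changes were all above 0 for male over female, with a median of 0.35, and all below 0 for F2/metestrus over F1/proestrus, with a median of −0.33. In each comparison 2 of 5 had an unadjusted p under 0.05 by edgeR, beside 9.72% of all genes between sexes and 2.48% between female groups.

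**Figure D2:**
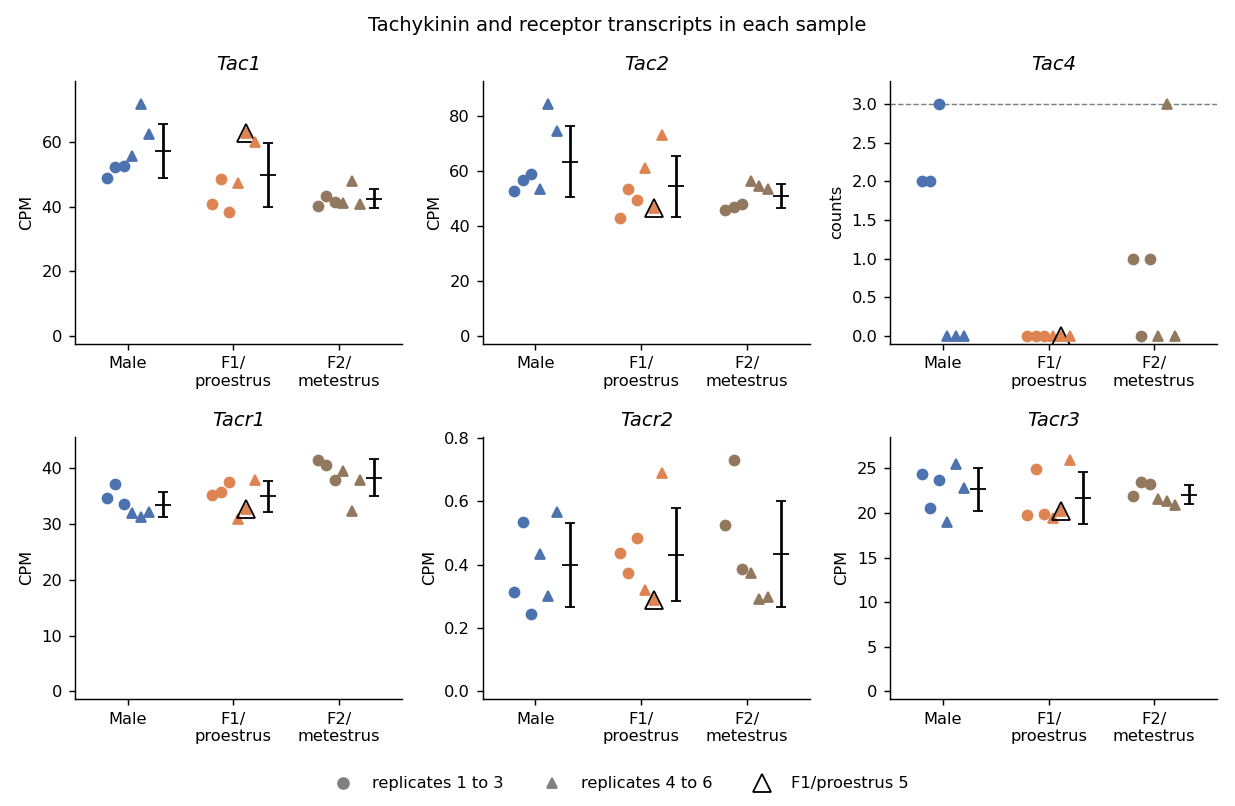
Level of each gene by sample, in CPM (raw counts for *Tac4*, with the floor of 3 counts dashed), in Male, F1/proestrus and F2/metestrus samples, where circles are replicates 1 to 3 and triangles replicates 4 to 6, the large open triangle marks F1/proestrus 5, and bars give mean and SD of 6 samples. The males lie above all F2/metestrus samples for *Tac1*, whose highest female is F1/proestrus 5 at 62.9 CPM.

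The comparison of sexes asked whether the DHSC of males and females differs in these transcripts. *Tac1* was 1.24-fold and *Tac2* 1.20-fold higher in the 6 males than in the 12 females, and *Tacr1* was at 0.914 of the female level, but none of the 5 genes tested passed an FDR of 5%. Over all genes, 0.197% of 24862 were called. The log2 fold change of male over female was 0.31 (SE 0.102) for *Tac1*, with an adjusted p of 0.322 by edgeR's quasi-likelihood test. It was 0.27 (SE 0.107, adjusted p = 0.415) for *Tac2* and −0.13 (SE 0.0622, adjusted p = 0.513) for *Tacr1* in the same edgeR fit. *Tacr2* had a log2 fold change of −0.12 (SE 0.232) and *Tacr3* of 0.05 (SE 0.0708), with adjusted p of 0.885 and 0.833 by edgeR. Before adjustment, *Tac1*, *Tac2* and *Tacr1* had a p under 0.05 in the edgeR test, as did 9.72% of all genes.

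*Tac1* was the member nearest to a call. With CPM of single samples, the difference of 11.2 CPM had an exact permutation p of 0.0140 (two-sided, 6 against 12), and 10 of 12 females lay below the lowest male. Without F1/proestrus 5 the difference was 12.7 CPM, with an exact permutation p of 0.00250. The corresponding exact permutation p was 0.0387 for *Tac2* (0.0596 without that sample) and 0.0558 for *Tacr1* (0.0358 without it). These are 3 of 5 genes so tested, with no correction. With the library series as a covariate and F1/proestrus 5 left out, *Tac1* passed the threshold (log2 fold change 0.35, SE 0.0736, adjusted p = 0.0292 by edgeR), in a fit that called 0.715% of genes. This combination was chosen after seeing the data, and over the 18 alternatives the adjusted p by edgeR, limma or DESeq2 ranged from this value to 0.901. Leaving out Male 5, the sample with the highest *Tac1*, gave a log2 fold change of 0.23 (adjusted p = 0.776 by edgeR). Within replicates 1 to 3 the log2 fold change of *Tac1* was 0.27 (SE 0.0724), and within replicates 4 to 6 it was 0.34 (SE 0.139), or 0.41 (SE 0.123) without F1/proestrus 5.

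The distance between the sexes was larger against F2/metestrus than against F1/proestrus. *Tac1* was 1.35-fold higher in males than in F2/metestrus females (log2 fold change 0.43, SE 0.112, adjusted p = 0.209 by edgeR in a fit of 3 groups) without overlap of the samples, which 0.318% of genes showed in this direction. The exact permutation p was 0.00216 (6 against 6), the smallest that this design can give. Against F1/proestrus the log2 fold change was 0.20 (SE 0.111), or 0.27 (SE 0.108) without F1/proestrus 5. *Tac2* had 0.32 (SE 0.127) against F2/metestrus and 0.22 (SE 0.126) against F1/proestrus, and *Tacr1* −0.19 (SE 0.0677) and −0.06 (SE 0.0677). These comparisons share the 6 males. The test of the difference between them is the comparison of the 2 female groups.

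Markers of other tissue were also compared between sexes. The summed level of 7 Schwann cell markers, genes of peripheral myelin of which some are also expressed in oligodendrocytes, was 1576 to 3101 CPM in males. In females it was 1224 to 1842 CPM, and at most 1598 CPM without F1/proestrus 5. Of the 7 Schwann cell markers, 1, *Ncmap*, was called (log2 fold change 0.67, adjusted p = 0.00654 by edgeR), beside 0.197% of all genes. An unadjusted p under 0.05 by edgeR was found for 6 of the 7 markers, beside 9.72% of all genes. Their log2 fold changes were all above 0, with a median of 0.53, beside a median of −0.00132 over all genes. The 7 markers of motor and ventral cholinergic neurons summed to 26.0 to 202 CPM in males and 38.0 to 351 CPM in females (up to 229 CPM without F1/proestrus 5, in which *Prph* alone was at 203 CPM). All 7 log2 fold changes were below 0, but 0 of 7 were called and 0 of 7 had an unadjusted p under 0.05 in the edgeR test. With the Schwann cell score as a covariate, the log2 fold change between sexes was 0.08 (SE 0.120) for *Tac1*, 0.18 (SE 0.154) for *Tac2* and −0.04 (SE 0.0807) for *Tacr1*. With the ventral score it was 0.23 (SE 0.102), 0.14 (SE 0.0901) and −0.12 (SE 0.0671). In these bulk samples, fewer cells of a type and less RNA per cell cannot be told apart.

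**Figure D3:**
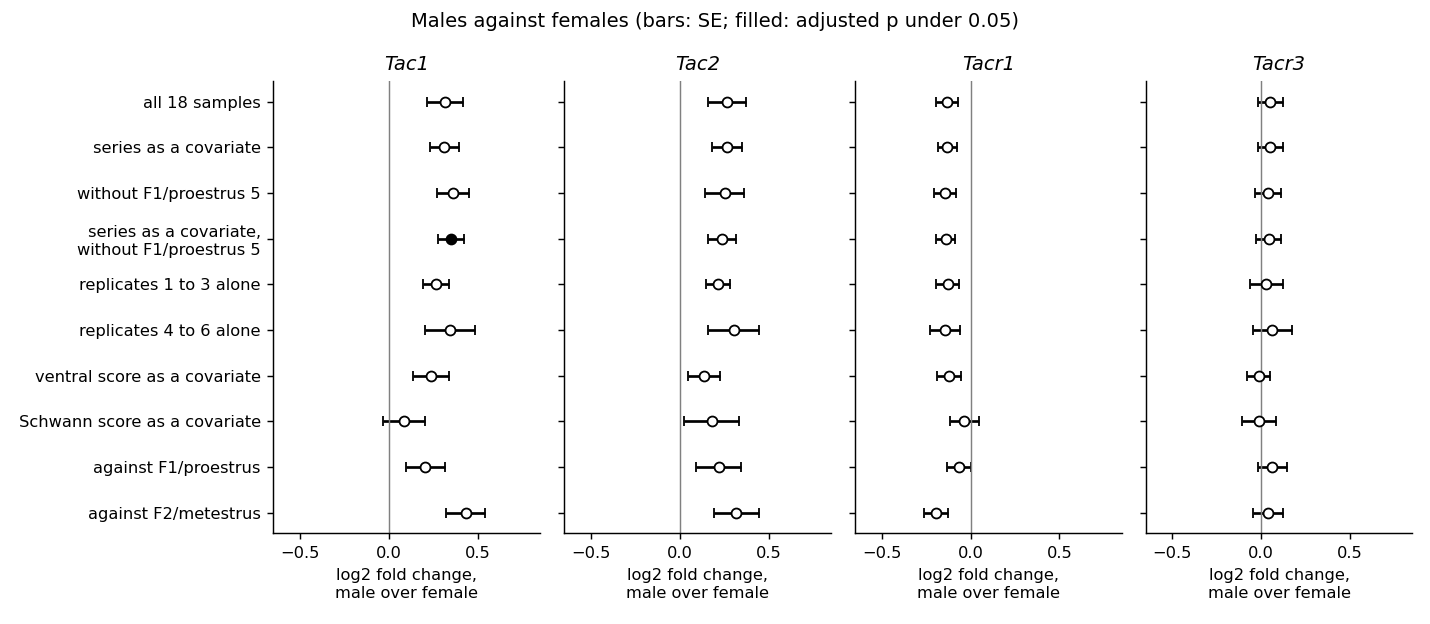
Log2 fold change of male over female for 4 genes under 10 fits, with SE as bars and filled points where the adjusted p is under 0.05. Only *Tac1* with the series as a covariate and F1/proestrus 5 left out is filled, and the value for *Tac1* is lowest, at 0.08, with the Schwann cell score as a covariate.

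The female groups differ in cycle stage and in the response to formalin, and the comparison asked whether the transcripts follow. None of the 5 genes tested was called between F2/metestrus and F1/proestrus, as was true of all 24042 genes (0.0%) by edgeR, where 596 genes (2.48%) and 0 of the 5 had an unadjusted p under 0.05. DESeq2 called 2 genes, neither of them a member. The log2 fold change of F2/metestrus over F1/proestrus was −0.23 (SE 0.108) for *Tac1*, −0.10 (SE 0.110) for *Tac2* and 0.13 (SE 0.0708) for *Tacr1* in edgeR, with exact permutation p on CPM of 0.136, 0.522 and 0.0866. For *Tacr2* and *Tacr3* it was 0.02 (SE 0.271) and 0.02 (SE 0.0821). The value for *Tac1* was −0.15 (SE 0.0978) without F1/proestrus 5. It was −0.04 (SE 0.0946) within replicates 1 to 3 and −0.39 (SE 0.117) within replicates 4 to 6, or −0.31 (SE 0.118) there without F1/proestrus 5. Whether the series differed in this value was not tested.

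F1/proestrus 5 had the highest *Tac1* of all females (62.9 CPM) and a *Tac2* level of 46.7 CPM, below the group median of 51.6. The summed level of the 10 ganglion markers was 481 CPM in this sample and 6.79 to 9.43 CPM in the other 17. *Avil* was at 132 CPM against 0.279 to 0.903, and *Trpv1*, the capsaicin receptor of nociceptors, at 32.2 CPM against at most 0.356. Among the 20 genes of Gq signalling examined, *Plcb3* was at 120 CPM there (23.6 to 34.4 in the other 17 samples). *Rgs4* was at 311 CPM (98.9 to 140) and *Gna14* at 22.6 CPM (5.70 to 9.29), while *Prkcb* was at 281 CPM (286 to 339). The share of all genes that lay outside the range of the other samples was not determined. *Tacr1* (32.7 CPM) and *Tacr3* (20.2 CPM) were within the range of the other F1/proestrus samples, and *Tacr2*, at 0.289 CPM, was the lowest of the group. Over the 18 samples, *Tac1* had a Pearson's r of 0.317 with the score of the ganglion markers (permutation p adjusted over 22 relations, 0.255). Without F1/proestrus 5 this r was −0.131. The part of the ganglion transcripts in the *Tac1* level of this sample was not tested beyond these values.

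Between the library series, 3 of the 5 genes tested were called, and so were 27.6% of 24038 genes. *Tac1* was higher in replicates 4 to 6, with 54.5 ± 10.7 CPM against 45.2 ± 5.43 (SD, n = 9 each), and the log2 fold change with group as a covariate was 0.24 (SE 0.0718, adjusted p = 0.0179 by edgeR). *Tac2* was higher as well, with 62.1 ± 12.5 against 50.7 ± 5.23 CPM and a log2 fold change of 0.27 (SE 0.0807, adjusted p = 0.0175 by edgeR). *Tacr1* was lower, with 34.0 ± 3.36 against 37.1 ± 2.66 CPM and a log2 fold change of −0.14 (SE 0.0443, adjusted p = 0.0198 by edgeR). The call of *Tacr1* was lost on leaving out any single one of F1/proestrus 2, 3 or 5, F2/metestrus 2 or 5, or Male 1, 2, 3, 5 or 6, with adjusted p up to 0.0847 in edgeR. In females alone none of the 3 passed (adjusted p of 0.0976, 0.0519 and 0.224 by edgeR). Each series held 3 samples of every group, so the series did not coincide with sex or cycle stage.

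The ligands varied together from sample to sample. Over the 18 samples, *Tac1* and *Tac2* had a Pearson's r of 0.715 (permutation p adjusted over 22 relations, 0.00979) and a Spearman's rho of 0.538 (adjusted permutation p = 0.0884). The permutations took no account of group or series, so shared shifts between groups or series enter the permutation p of all these relations. Without the 2 samples farthest from the median of *Tac1*, F1/proestrus 5 and Male 5, r was 0.805, and without F1/proestrus 5 alone it was 0.870. It was 0.864 within replicates 1 to 3. Within replicates 4 to 6 it was 0.533, or 0.842 without F1/proestrus 5. Once the mean of each group in each series had been removed, r was 0.325. *Tac1* and *Tacr1* ran in opposite directions (r = −0.643, rho = −0.633, adjusted permutation p of 0.0164 and 0.0634). Without the 2 farthest samples r was −0.541, within the series it was −0.558 and −0.523, and after removal of the group means in each series it was −0.0616. *Tacr3* had r of 0.477 with *Tac2* and 0.341 with *Tac1*, neither of which passed adjustment (permutation p of 0.0914 and 0.255). After removal of the group means in each series these values were 0.745 and 0.647, above that of *Tac1* and *Tac2*, and for *Tacr3* and *Tac2* r was 0.388 within replicates 1 to 3 and 0.804 within replicates 4 to 6.

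The levels were also compared with the scores of marker genes. *Tac2* was inversely related to the score of motor and ventral cholinergic markers (r = −0.707, adjusted permutation p = 0.0140; rho = −0.546, adjusted permutation p = 0.0884). This relation held without the 2 samples farthest from the median score (r = −0.729) and after removal of group means (r = −0.761), and was −0.341 within replicates 1 to 3 and −0.964 within replicates 4 to 6. *Tacr3* and *Tac1* were related to this score in the same direction (r = −0.634 and −0.559, adjusted permutation p of 0.0164 and 0.0424). Their rho was −0.474 and −0.447 (adjusted permutation p of 0.134 and 0.141), and r without the 2 farthest samples was −0.452 and −0.450. F1/proestrus 5 had the highest ventral score, at 1.11. Without this sample r was −0.609 for *Tacr3* and −0.747 for *Tac1* (adjusted permutation p of 0.0263 and 0.00869), and rho −0.441 and −0.676. Male 5, which had the highest *Tac1* and *Tac2*, had the lowest ventral score of all samples, at −2.11. *Tac1* followed the Schwann cell score (r = 0.729, adjusted permutation p = 0.00979; rho = 0.740, adjusted permutation p = 0.0134), with r of 0.812 and 0.734 within the series, 0.638 without the 2 farthest samples and 0.675 after removal of group means. *Tac2* followed the score of dorsal horn neurons (r = 0.654, adjusted permutation p = 0.0164), with r of 0.492 without the 2 farthest samples. The rho of this relation was 0.595 (adjusted permutation p = 0.0787). *Tacr1* was inversely related to the Schwann cell score (r = −0.582, adjusted permutation p = 0.0340), with r of −0.495 without the 2 farthest samples. Here rho was −0.567 (adjusted permutation p = 0.0871). The part of the dissected tissue in the levels of these genes was not tested beyond these values.

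**Figure D4:**
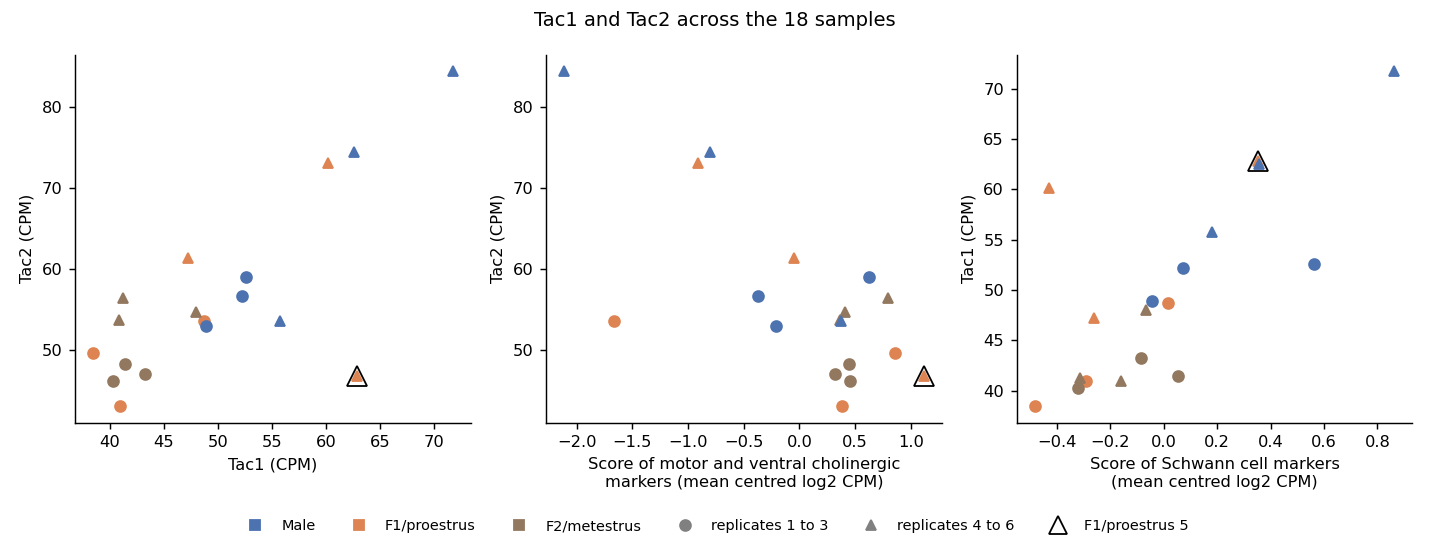
*Tac2* against *Tac1*, *Tac2* against the score of motor and ventral cholinergic markers, and *Tac1* against the Schwann cell score, with 1 point per sample, where colours give the group and shapes the series, the large open triangle marks F1/proestrus 5, levels are in CPM and scores are means of centred log2 CPM. *Tac2* falls as the ventral score increases (r = −0.707 on log2 CPM), and F1/proestrus 5 lies off the trend of the ligands.

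The genes whose levels were most like those of each member were looked for among 17763 genes with at least 1 CPM, by Pearson's r of log2 CPM over the 18 samples. For *Tac2* they were *Vstm2l* (r = 0.960), *Hoxb3os* (0.957), *Sst* (0.953), *Cck* (0.950) and *Hpca* (0.948), of which *Sst* and *Cck* encode the neuropeptides somatostatin and cholecystokinin. These values stayed between 0.901 and 0.941 after removal of group and series means. For *Tac1* they were *F2rl2* (0.920), *Kcnip2* (0.919), *Crlf2* (0.911), *Nptx2* (0.883) and *Gpx7* (0.880), and here the value for *Nptx2* dropped to 0.390 after that removal. *Tac2* came 244th in the list of *Tac1*. For *Tacr1* they were *St18* (0.857), *Plekhh1* (0.833), *Abat* (0.830), *Casc3* (0.809) and *4930402H24Rik* (0.803). For *Tacr3* they were *Ppp2r5a* (0.815), *Qrfpr* (0.812), *Ebf2* (0.793), *Josd1* (0.782) and *Vopp1* (0.781), of which *Qrfpr* encodes another neuropeptide receptor.

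The enzymes that make and break the peptides all passed the filter, with *Dpp4* and *Anpep* the lowest, at 60 and 84 counts in their lowest sample. Of 7 genes of precursor processing and amidation, none was called between sexes or between female groups. *Cpe*, the carboxypeptidase that trims the cut peptides, had 1641 ± 76.5 CPM in males and 1575 ± 84.0 in females (SD), and *Pam*, which forms the C-terminal amide that tachykinins need for activity, 39.5 ± 2.77 and 39.2 ± 3.18 CPM. The smallest p among the 7 between sexes was that of *Cpe* (log2 fold change 0.06, adjusted p = 0.637 by edgeR). Of the 9 entries for peptide-degrading enzymes, which cover 8 genes, none was called in either comparison. *Mme*, or neprilysin, which cuts substance P, had 25.0 ± 6.07 CPM in males and 22.6 ± 3.87 in females (log2 fold change 0.14, SE 0.126, adjusted p = 0.717 by edgeR). *Prep* had −0.12 (SE 0.0674, adjusted p = 0.557 by edgeR), the smallest p of these entries between sexes. Between the series *Pcsk1n* (log2 fold change 0.51) and *Cpe* (0.09) rose, and *Pam* (−0.19) and *Ace* (−0.27) fell, with adjusted p from 2.73e-05 to 0.0302 by edgeR. These were 3 of 7 processing genes and 1 of 9 entries for degrading enzymes, beside 27.6% of all genes.

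Downstream of the receptors, none of 20 genes of Gq coupling, calcium release and desensitization was called between sexes or between female groups. The nearest between sexes were *Arrb2*, an arrestin that ends receptor signalling (log2 fold change 0.17, SE 0.0811, adjusted p = 0.510), and *Itpr3*, a calcium release channel (0.36, SE 0.171, adjusted p = 0.514), both by edgeR. Between the series 2 of the 20 rose and 9 fell in edgeR, beside 12.4% and 15.2% of all genes. All 3 IP3 receptor genes were among those that fell, *Itpr1* by 0.69 (SE 0.0684), *Itpr2* by 0.38 (SE 0.0609) and *Itpr3* by 0.57 (SE 0.113) on the log2 scale. *Tacr1* was lower in the same replicates 4 to 6, as given above.

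In the hypothalamus neurokinin B acts together with kisspeptin and dynorphin under the control of sex steroids, and the genes of that system were examined here. Of 9 genes with 10 entries, 7 entries were tested and none was called between sexes or between female groups. *Pdyn*, the dynorphin precursor, was 59.6 ± 8.17 CPM in males and 46.2 ± 5.02 in females (SD). Its log2 fold change was 0.37 (SE 0.0778), with an adjusted p of 0.0537 by edgeR. Among the genes in these lists that did not pass the threshold between sexes, *Pdyn* was the closest to it. *Kiss1* had at most 16 counts and *Gnrh1* at most 9 in any sample, and neither was tested. The estrogen receptor *Esr1* was at 13.7 ± 2.13 CPM in males and 13.7 ± 1.58 in females. Between the series *Esr1* fell by 0.26 on the log2 scale (adjusted p = 0.00675 by edgeR), and 2 of the 7 entries tested were called lower, beside 15.2% of all genes.

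Markers of dorsal horn neurons that are known to hold a tachykinin or its receptor were likewise not called between sexes or between female groups. Between sexes 9 of the 10 log2 fold changes were above 0, with a median of 0.14 beside −0.00132 over all genes tested. Of the 10, 4 had an unadjusted p under 0.05 by edgeR, all higher in males, beside 9.72% of all genes in either direction. The smallest p was that of *Nmur2* (log2 fold change 0.23, SE 0.0750, adjusted p = 0.323 by edgeR), followed by *Phox2a* (0.59, SE 0.213, adjusted p = 0.365), which had 15 to 65 counts per sample, and *Lypd1* (0.16, SE 0.0604, adjusted p = 0.375). Between the series *Cck* rose (log2 fold change 0.34, SE 0.0791, adjusted p = 0.00329 by edgeR), which made 1 of 10 called beside 27.6% of all genes. Mast cell genes, which mark cells that substance P can act on, were nearly absent. *Mrgprb2*, the mast cell receptor for substance P, had at most 1 count, and of the 6 mast cell markers *Kit*, which neurons also express, was the sole gene to pass the filter.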

How the data were processed

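RNA-Seq of 18 ipsilateral DHSC samples was examined. The authors deposited raw counts per Ensembl gene without normalization; reads were uniquely mapped to mm10 with Subread and counted on exons with featureCounts. The submitters' processing notes name bcl2fastq 2.20.0.422, Subread 2.0.3 and DESeq2 1.3.0. The methods name the TruSeq kit and the labels SMART-Seq amplification with Nextera XT; strand use is not given in the sources used here. The deposited table of a DESeq2 comparison was used for gene symbols only, and its fold changes and p-values were not used.

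Genes were placed by GENCODE vM21, which held 55480 of 55573 IDs. Of the 6 genes, 5 passed filterByExpr (minimum count 10, total 15). Counts were normalized with TMM and tested with edgeR 4.0.16 in R 4.3.3 (quasi-likelihood, Benjamini-Hochberg over all genes tested, FDR of 5%), with limma 3.58.1 and DESeq2 1.42.0 as alternatives. The fits were F2/metestrus against F1/proestrus (12 females), males against all 12 females, and replicates 4 to 6 against 1 to 3 with group as a covariate. Correlations used log2 CPM (prior count 2) with 100000 permutations. A marker score is the mean over a list of log2 CPM centred for each gene. The edgeR fits were tested on simulated counts with no outlying library. For sex and the female groups these counts also held no library series, so the test does not cover these features.

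Alternatives were other tools, scaling, filters, robust dispersions, leaving out each sample, the replicate number as a block, the series, each series alone, single female groups and a ganglion score. Chosen after seeing the data were the fits that combine the series with leaving out F1/proestrus 5, and the Schwann and ventral scores. The genes named are the 6 members, those of the fixed lists past the threshold or with the 3 smallest p of a list, and the 5 genes most like each member; other marker, processing and receptor genes were named after their values were seen. Results of some listed genes are not reported here. The members and lists were chosen with earlier results of these data known.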

Additional observations from a re-analysis of the deposited data

How the results depend on the processing

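The number of members past the threshold between sexes, 0, held in every alternative but 1, the series as a covariate with F1/proestrus 5 left out, which called 1 (*Tac1*). Between the female groups it was 0 in all 16 alternatives and all 12 fits without a sample. Between the series the number was 3, 0 in females alone, 2 to 3 in fits that left out a sample and 3 in the other alternatives but without a filter, where *Tacr1* was lost (adjusted p = 0.0589). Of 22 relations, 8 passed adjustment with Pearson's r, 1 with Spearman's rho and 8 without F1/proestrus 5. Genes called between sexes numbered 49 in the reported fit and 13 to 177 under alternatives, with 25 without Male 5, 30 without Male 4 and 77 without F1/proestrus 5. Between the series they numbered 6637, and 3932 in females alone.

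Log2 fold changes near 0 changed sign. Between the female groups, *Tacr2* was −0.000926 with a replicate block, −0.0219 with the series, −0.42 in replicates 4 to 6, −0.0606 with the ganglion score, −0.0837 with the series without F1/proestrus 5, −0.64 in replicates 4 to 6 without that sample and −0.20 to 0.20 without single samples. *Tacr3* was −0.0373 in replicates 4 to 6, −0.0914 there without F1/proestrus 5 and −0.00747 to 0.0814 without single samples, and *Tac2* −0.16 to 0.00321 without single samples. Between sexes, *Tacr2* was 0.21 in replicates 4 to 6, 0.14 there without F1/proestrus 5 and 0.28 with the Schwann score, and *Tacr3* −0.0140 with the ventral and −0.0133 with the Schwann score. The cause was not tested.

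The replicate numbers were not taken to pair the samples, since 9 of 18 pairs, and not all, had a correlation of their deviations over 0.1 (range −0.105 to 0.228), and 4 of 18 samples correlated best with their own number. With a replicate block 148 genes were called between sexes and 0 of the 5 members, and 0 members between the female groups. Counts of 23 to 76 limit what can be said of *Tacr2*, and *Tac4* cannot be compared at this depth.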
